A study of Mus musculus with 12 samples.

Results

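The genes described here are 10 immediate early transcription factor genes, Fos, Fosb, Fosl2, Jun, Junb, Egr1, Egr2, Atf3, Nr4a1 and Nr4a3, taken as a list of names out of 53819 genes in the count files. All 10 were found. Of these, 9 had enough reads to be tested and the remaining gene, Fosb, did not. RNA was sequenced from bone marrow monocytes of C57Bl6J mice of wild-type genotype, in 4 groups of 3 libraries. The groups were monocytes with no treatment, monocytes exposed to platelets overnight and washed, monocytes stimulated with lipopolysaccharide (LPS, a bacterial cell wall component recognised by Toll-like receptor 4), and monocytes exposed to platelets overnight, washed and then given LPS. The sources used here give neither the platelet number, the LPS dose and time nor the age of the mice. They also do not state whether the 3 libraries of each group are separate mice, separate cultures or repeat preparations, so a p-value speaks only of the spread among libraries, which may be technical.

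Immediate early genes are transcribed within minutes of a stimulus without new protein being made, and their transcripts are short-lived. FOS and JUN family proteins and ATF3 pair through leucine zippers to form AP-1 dimers, whose DNA binding and strength depend on which partners are present, while EGR proteins are zinc finger factors and NR4A proteins are nuclear receptors that act without a known physiological ligand. In monocytes and macrophages these families are known as early targets of kinase signalling downstream of Toll-like receptors, and ATF3 and NR4A proteins are known as restraints on inflammatory genes.

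The promoters of the 5 genes on which the results below turn are printed here, so that the letters can be read beside the values. Each is the 250 bases before the gene's start in RefSeq, build GRCm38.p6, read 5' to 3' on the strand of the gene: Fos at chr12:85473640-85473889 on the plus strand, Jun at chr4:95052223-95052472 on the minus strand, Junb at chr8:84978749-84978998 on the minus strand, Atf3 at chr1:191183334-191183583 on the minus strand and Nr4a3 at chr4:48045055-48045304 on the plus strand. Capitals mark matches, on either strand, to the motifs searched.
Fos: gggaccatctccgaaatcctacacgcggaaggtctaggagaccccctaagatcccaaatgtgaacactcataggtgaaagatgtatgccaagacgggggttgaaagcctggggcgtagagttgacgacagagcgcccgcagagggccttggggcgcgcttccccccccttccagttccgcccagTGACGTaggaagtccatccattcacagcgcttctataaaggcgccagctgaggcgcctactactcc
Jun: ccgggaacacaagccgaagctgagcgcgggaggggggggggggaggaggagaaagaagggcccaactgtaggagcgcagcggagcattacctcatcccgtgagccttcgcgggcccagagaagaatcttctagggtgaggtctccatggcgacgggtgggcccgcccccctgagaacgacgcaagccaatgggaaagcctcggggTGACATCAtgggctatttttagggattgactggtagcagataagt
Junb: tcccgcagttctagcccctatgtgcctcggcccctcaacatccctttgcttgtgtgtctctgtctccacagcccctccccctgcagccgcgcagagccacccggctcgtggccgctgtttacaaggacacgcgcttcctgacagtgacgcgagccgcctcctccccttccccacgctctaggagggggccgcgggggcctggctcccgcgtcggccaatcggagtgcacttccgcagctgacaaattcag
Atf3: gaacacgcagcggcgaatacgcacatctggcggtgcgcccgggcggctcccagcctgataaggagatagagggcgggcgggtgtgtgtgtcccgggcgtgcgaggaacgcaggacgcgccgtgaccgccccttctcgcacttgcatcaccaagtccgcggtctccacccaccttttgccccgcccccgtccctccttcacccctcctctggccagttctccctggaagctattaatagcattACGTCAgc
Nr4a3: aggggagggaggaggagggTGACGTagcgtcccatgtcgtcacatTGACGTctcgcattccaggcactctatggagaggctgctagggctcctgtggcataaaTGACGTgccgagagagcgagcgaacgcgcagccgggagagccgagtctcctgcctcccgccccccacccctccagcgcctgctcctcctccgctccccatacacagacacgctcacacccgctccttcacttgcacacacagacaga
In all, 5 motifs were searched on both strands: the core of the cyclic AMP response element (CRE), TGACGT, its Jun-type relative TGACNTCA, which overlaps the core wherever N is G, the AP-1 site TGANTCA, the EGR site GCGNGGGCG, and the CArG box bound by serum response factor. The CRE core and the Jun-type relative were added to the search with these sequences in view. Fos held a CRE core 66 to 61 bases before its start, Jun the Jun-type TGACATCA 45 to 38 bases before, and Atf3 a CRE core, in reverse, 8 to 3 bases before. Nr4a3 held 3 CRE cores, which began 231, 205 and 147 bases before its start. Junb held none of the 5 motifs in this window. Of the other members, Egr2 held a CArG box at 4 of its 5 listed starts and a CRE core at 3 of them. The windows of its starts 3, 4 and 5 overlap and hold the same CArG box and the same CRE core. Fosb, Fosl2 and Nr4a1 each held an EGR site. Egr1 had no promoter entry in the source used and was not searched. Among 32851 RefSeq promoter entries of this length, 6.47% held the CRE core, 7.49% the Jun-type relative, 6.75% the AP-1 site, 4.70% the EGR site and 1.47% the CArG box. These matches are letters in a window, not measured binding.

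Total counts ran from 20060867 to 32155727 per library, so 3 counts, taken as the smallest dependable level, correspond to 0.0854 to 0.163 CPM, a read count normalised to sequencing depth. Depth here is the library total multiplied by edgeR's TMM (trimmed mean of M-values) factor. Platelet replicate 1 is called a control in its description but carries platelets in its title and treatment label, and it was kept with the platelet group. Of the 15 platelet and megakaryocyte markers described below, 1 was at 0 in this library, against 7 in each untreated library. Its erythroid markers summed to 24.5 CPM, against 1.12 to 1.61 in untreated libraries. Its mitochondrial share was 0.886% against 0.431 to 0.600% in the other 11 libraries. Compared gene by gene with the other platelet libraries, its counts gave chi-square values of 76.2 and 83.5 when divided by the degrees of freedom, where every other pair of libraries within a group gave 6.75 to 21.6. Values without it are therefore given where they alter a call of a member.

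All 10 monocyte markers searched were tested, and their summed level, most of it Lyz2, was 33117 to 41992 CPM over the 12 libraries. Single monocyte markers moved within that sum. LPS called 5 higher and 2 lower, with Cd14, the LPS co-receptor, 10.7-fold higher and Cx3cr1, the fractalkine receptor, 5.18-fold lower. Platelets alone called 1 higher (Lyz2, 1.21-fold, a call lost in 4 of 21 alternatives) and 1 lower (Ccr2, a chemokine receptor, 1.46-fold). Under LPS prior platelets called 3 higher, among them Cx3cr1 (3.25-fold), and 2 lower. T and NK cell markers summed to at most 0.471 CPM and B cell markers to at most 4.75 CPM. Neutrophil markers summed to 25.7 to 33.5 CPM in untreated and 34.3 to 51.8 in platelet libraries. With LPS they summed to 29.5 to 44.4 CPM, and to 38.8 to 61.5 with prior platelets and LPS. Stromal and endothelial markers summed to 0.912 to 1.67 CPM without LPS. With LPS, where most of it was Pdgfrb, that sum was 31.2 to 38.4 CPM, and 24.2 to 26.5 after platelets. Of 15 platelet and megakaryocyte markers, 12 were tested, and 6 were higher and 1 lower in platelet-exposed than in untreated monocytes, as were 7 and 1 between the LPS groups. The median log2 difference of the 12 was 3.72 without LPS and 3.21 with it. Gng11, a G protein gamma subunit, was at 1.81 ± 0.229 CPM in untreated, 99.5 ± 41.8 in platelet, 2.01 ± 0.453 in LPS and 64.6 ± 6.74 in platelet plus LPS libraries (SD, n = 3). Clec1b, which encodes the platelet receptor CLEC-2, was at 0.0453 ± 0.0785, 18.7 ± 5.55, 0.726 ± 0.0362 and 12.3 ± 1.79 CPM in the same order. Gp9, a subunit of the platelet von Willebrand factor receptor, had 1, 950, 2 and 311 reads in all, and Nrgn had 2, 1653, 0 and 651. Reads of these 4 genes were thus far more numerous in both platelet-exposed groups. The 1 marker called lower was Ppbp, both without LPS (log2 −0.48, adjusted p = 0.00536) and with it (log2 −0.86, adjusted p = 2.84e-05). Both calls held in all 21 alternatives. The summed level, nearly all of it Pf4 and Ppbp, ran from 3790 to 4498 CPM in untreated, 3415 to 6136 in platelet, 3904 to 4717 in LPS and 3643 to 3923 in platelet plus LPS libraries, with 7, 1 to 2, 6 to 8 and 1 to 3 of the 15 markers at 0. The 6136 CPM was platelet replicate 1 alone, and platelet replicates 2 and 3 were at 3793 and 3415 CPM. Gp1bb and Gp5, which encode further subunits of that receptor, were at 0 in all untreated and LPS libraries and had 1 read each in the exposed ones. Erythroid markers summed to 1.12 to 1.61 CPM in untreated, 11.9 to 24.5 in platelet, 0.0362 to 0.650 in LPS and 7.08 to 9.35 CPM in platelet plus LPS libraries. Of 5 tested basophil and mast cell markers, 4 were higher with platelets alone and 2 with prior platelets under LPS. These 2, the proteases Prss34 and Mcpt8, were 12.6-fold and 14.7-fold higher, from 23 and 8 reads in all in LPS libraries. Mcpt8 was thus near the floor of 3 counts a library there, and ran from 0.430 to 3.34 CPM in platelet plus LPS libraries. The other 3 were not called. Among them Hdc was lower, at 103 ± 1.85 CPM in LPS and 80.4 ± 2.40 in platelet plus LPS libraries (SD, n = 3). Untreated libraries held Hdc at 0.231 ± 0.109 CPM. The summed list ran from 104 to 107 CPM in LPS and 82.7 to 93.8 in platelet plus LPS libraries. Of the 4 calls with platelets alone, Hdc was lost in 13 of 20 alternatives and Gata2 in 15 of 21. Those of Mcpt8 and Prss34 held in all 21. Of 6 tested dendritic cell markers, 2 were higher with platelets alone (Ccr7 6.64-fold and Flt3 3.61-fold), from 27 and 33 reads in all in untreated libraries. The call of Flt3 was lost in 2 of 21 alternatives, and prior platelets under LPS called 0 of the 6. Ccr7 was also at 34.2 ± 3.17 CPM with LPS alone, against 0.314 ± 0.215 in untreated libraries (SD, n = 3). The markers named here were picked after their values were seen. The part of these markers in the results below was not tested. In bulk RNA, fewer cells of a type and less RNA per cell cannot be told apart.

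Fos, the founding member of the FOS family, which forms AP-1 only together with a partner such as a JUN protein, was the 1 tested member whose platelet effect passed the test of a difference between cells with and without LPS. Its level was 184, 186 and 192 CPM in the 3 untreated libraries, 178, 183 and 189 CPM in the platelet libraries, 129, 131 and 122 CPM in the LPS libraries, and 248, 249.8 and 243 CPM in the platelet plus LPS libraries. With TMM scaling the untreated and platelet libraries overlapped, all 3 LPS libraries lay below both of those groups, and all 3 platelet plus LPS libraries lay above every other library. Per library total, platelet plus LPS replicate 3 (6216 of 29135846 reads) did not lie above untreated replicate 3 (5657 of 26090209 reads). In cells not exposed to platelets, Fos was 1.47-fold lower with LPS (log2 −0.56, SE 0.07, adjusted p = 7.88e-06 by the quasi-likelihood test of edgeR with Benjamini-Hochberg adjustment over 13151 genes, the test behind every adjusted p here unless another is named). Between the LPS groups, Fos was 1.94-fold higher with prior platelets, with a 95% interval of 1.74 to 2.16 (log2 0.95, SE 0.07, adjusted p = 4.61e-07). Platelets alone gave a log2 difference of −0.03 (SE 0.07, adjusted p = 0.848). The difference between these 2 platelet effects, the interaction, was 0.99 on the log2 scale, or 1.98-fold (SE 0.10, adjusted p = 1.1e-04). Over 20 alternative analyses it ran from 0.93 to 1.01 and passed the threshold of 0.05 in all of them, with adjusted p from 5.1e-28 to 0.001.

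In platelet-exposed cells LPS was accompanied by a Fos level 1.35-fold higher (log2 0.43, SE 0.07, adjusted p = 1.09e-04), but this rise depends on how libraries are scaled. With library totals alone, without TMM, it was 0.07 (adjusted p = 0.411), and the median gene of that comparison moved from 0.02 to −0.34. The same scaling took the fall of Fos in cells without platelets to −0.94, and left the interaction at 1.01.

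**Figure D1:**
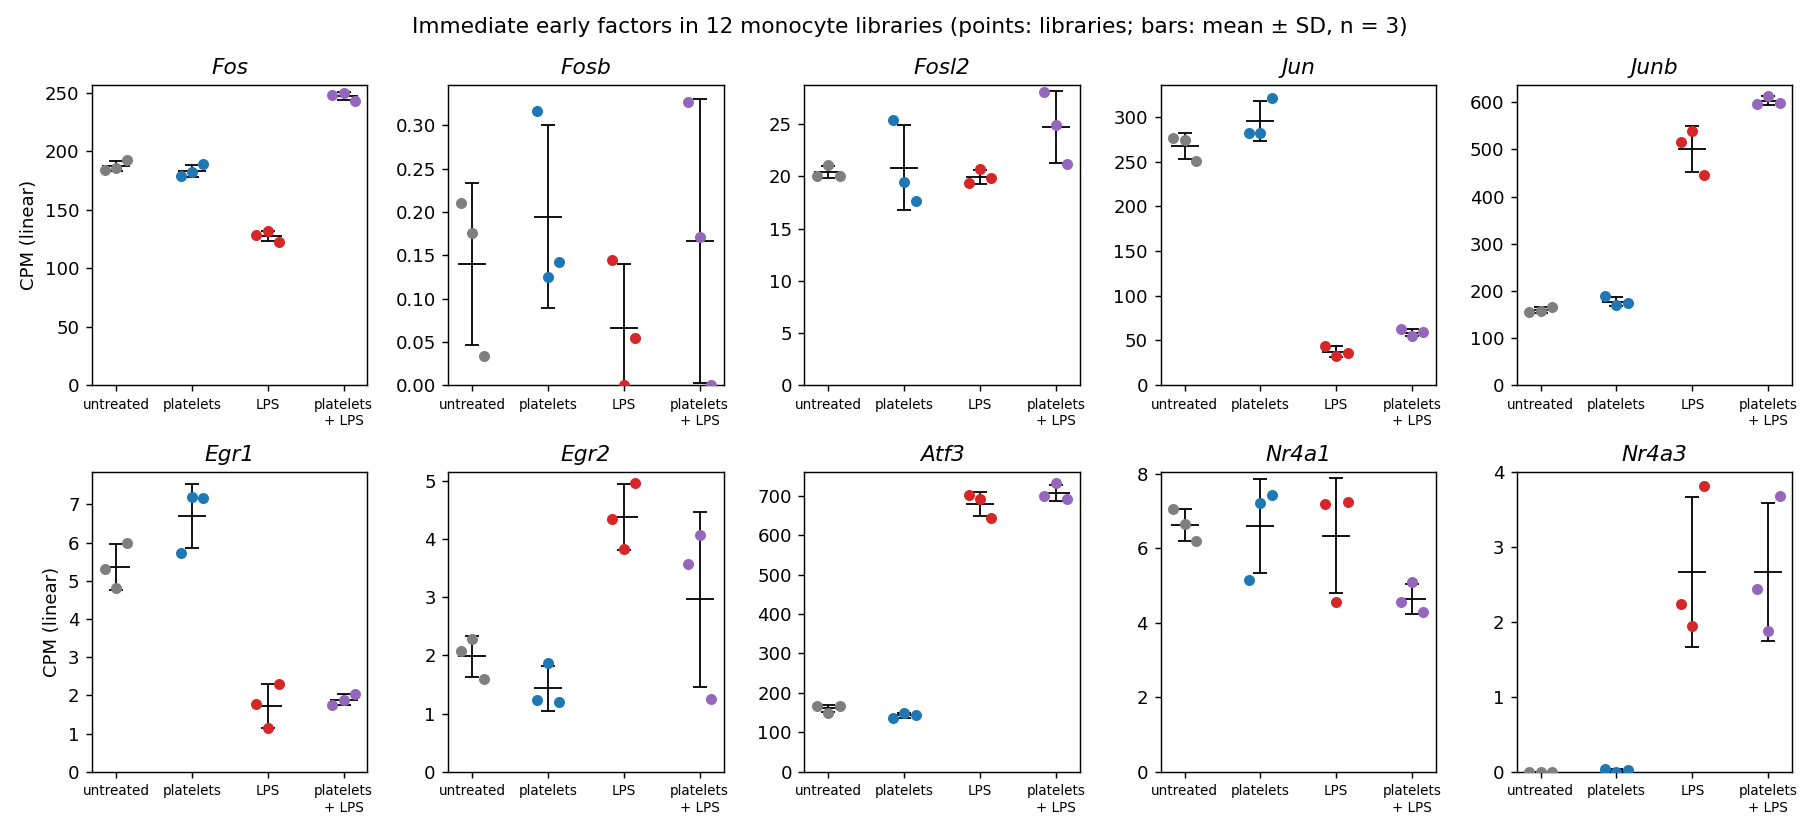
Level of each of the 10 genes in CPM on a linear axis that starts at 0, by treatment group, with a point for each library and bars for the mean and SD (n = 3). Fos is lowest in the LPS libraries (129, 131 and 122 CPM) and highest in the platelet plus LPS libraries (248, 249.8 and 243 CPM, with TMM scaling), Jun and Egr1 are low in both LPS groups, and Junb, Atf3 and Nr4a3 are high in both.

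The other FOS family genes among the members, Fosl2 and Fosb, were not called in any of these comparisons. Fosl1, also of this family, is not a member and was counted among the other AP-1 partners below. Fosl2, whose product FRA-2 lacks the strong activation domain of FOS, was at 20.1, 21.1 and 20.1 CPM in untreated, 25.4, 19.4 and 17.6 CPM in platelet, 19.3, 20.7 and 19.9 CPM in LPS and 28.1, 24.9 and 21.2 CPM in platelet plus LPS libraries. The platelet plus LPS libraries all lay above the LPS libraries, but the spread within each platelet-exposed group was wide and replicate 1 was its highest library in both. The log2 difference of platelet plus LPS against LPS libraries was 0.31 (SE 0.14, adjusted p = 0.223), and that of LPS against untreated cells was −0.03 (SE 0.14, adjusted p = 0.872). LPS after platelets gave 0.25 (SE 0.14, adjusted p = 0.14), which passed without platelet replicate 1 (log2 0.36, adjusted p = 0.0193). With library totals alone Fosl2 passed as lower in LPS than in untreated cells (log2 −0.41, adjusted p = 0.0137). Fosb, a close relative of Fos, was at 0.210, 0.175 and 0.0340 CPM in untreated libraries and between 0 and 0.327 CPM in the others. It was represented by 12, 18, 5 and 13 reads in all in the untreated, platelet, LPS and platelet plus LPS groups, so that a difference was not detectable at this depth. Without a filter on low counts its adjusted p ran from 0.602 to 1.00 over the comparisons.

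Jun and Junb, 2 partners that compete for the same FOS and ATF proteins, went opposite ways with LPS. Jun, the stronger activator of the pair in textbook accounts, was at 277, 274 and 250.5 CPM in untreated, 282, 282 and 321 CPM in platelet, 43.7, 32.2 and 36.0 CPM in LPS and 62.4, 54.5 and 58.9 CPM in platelet plus LPS libraries. Every LPS library was far below every library without LPS, and the platelet plus LPS libraries all lay above the LPS libraries. Jun was 7.15-fold lower with LPS in cells without platelets (log2 −2.84, SE 0.11, adjusted p = 5.33e-12) and 5.04-fold lower in cells exposed to platelets (log2 −2.33, SE 0.11, adjusted p = 4.82e-11). Within the LPS groups it was 1.57-fold higher with prior platelets, with a 95% interval of 1.34 to 1.84 (log2 0.65, SE 0.11, adjusted p = 0.00154). Platelets alone gave 1.11-fold, with all 3 platelet libraries above all 3 untreated ones (log2 0.14, SE 0.11, adjusted p = 0.479). The interaction for Jun was 0.51 on the log2 scale (SE 0.15, unadjusted p = 0.00453) and did not pass adjustment over all genes (adjusted p = 0.149, and 0.0556 to 0.365 over the alternatives), so the platelet effect on Jun with LPS is not shown to differ from that without.

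Junb, a weaker activator that replaces Jun in many AP-1 dimers, was at 154, 157 and 165 CPM in untreated, 188, 169 and 174 CPM in platelet, 516, 539.6 and 446 CPM in LPS and 597, 614 and 599 CPM in platelet plus LPS libraries. The 4 groups did not overlap and stood in that order. LPS raised it 3.15-fold without platelets (log2 1.65, SE 0.08, adjusted p = 1.05e-10) and 3.41-fold with them (log2 1.77, SE 0.08, adjusted p = 5.05e-11). With prior platelets its level under LPS was 1.21-fold higher, with a 95% interval of 1.07 to 1.36 (log2 0.27, SE 0.08), and the adjusted p of 0.0624 missed the threshold. That call changed with the analysis: 6 of 21 alternatives passed, among them the DESeq2 Wald test (adjusted p = 0.00705), limma-voom (adjusted p = 0.0424), the fit of these 2 groups alone (adjusted p = 0.0235) and the fit without platelet replicate 1 (adjusted p = 0.0142). Strand was not stated for the counting. In GENCODE M21 the exons of Junb share 173 of 2301 bases with Prdx2 on the other strand, and those of Jun share 232 of 3189 bases with the antisense gene Junos, so reads from those stretches cannot be assigned.

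Atf3, a member of the ATF/CREB family that as a homodimer represses and that also pairs with JUN proteins, had the largest LPS rise among the AP-1 members tested. It was at 166, 150.3 and 166 CPM in untreated, 137, 149.9 and 143 CPM in platelet, 701, 693 and 643 CPM in LPS and 699, 731 and 692 CPM in platelet plus LPS libraries. The libraries with LPS lay far above those without it, and the 2 LPS groups overlapped. LPS raised Atf3 4.23-fold without platelets (log2 2.08, SE 0.08, adjusted p = 2.06e-12) and 4.93-fold with them (log2 2.30, SE 0.08, adjusted p = 6.98e-13). All 3 platelet libraries lay below the untreated ones, by 1.12-fold (log2 −0.16, SE 0.07, unadjusted p = 0.046, adjusted p = 0.24). Under LPS, prior platelets gave 1.04-fold, with a 95% interval of 0.934 to 1.16 (adjusted p = 0.735).

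The EGR genes also split. Egr1, the zinc finger factor most often used as a marker of recent kinase signalling, was at 5.30, 4.80 and 5.99 CPM in untreated, 5.74, 7.19 and 7.17 CPM in platelet, 1.77, 1.14 and 2.29 CPM in LPS and 1.75, 1.88 and 2.04 CPM in platelet plus LPS libraries. Both LPS groups lay below both groups without LPS. Egr1 was 3.13-fold lower with LPS without platelets (log2 −1.64, SE 0.24, adjusted p = 2.56e-05) and 3.55-fold lower with them (log2 −1.83, SE 0.23, adjusted p = 6.59e-06). Platelets made a log2 difference of 0.32 (SE 0.21, adjusted p = 0.434) without LPS and 0.14 (SE 0.25, adjusted p = 0.825) with it.

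Egr2, known as a regulator of macrophage maturation, was low, at 2.07, 2.28 and 1.60 CPM in untreated, 1.23, 1.88 and 1.20 CPM in platelet, 4.34, 3.82 and 4.96 CPM in LPS and 3.57, 4.07 and 1.25 CPM in platelet plus LPS libraries. The LPS libraries lay above the untreated ones, while platelet plus LPS replicate 3 fell among the platelet libraries. Egr2 was 2.20-fold higher with LPS (log2 1.14, SE 0.35, adjusted p = 0.0127) and 2.06-fold higher with LPS after platelets (log2 1.04, SE 0.36, adjusted p = 0.0243). The first call was lost with library totals alone (log2 0.76, adjusted p = 0.0761) and without untreated replicate 3 (log2 1.00, adjusted p = 0.0536), and the second in 8 of 21 alternatives, with adjusted p up to 0.127. Without platelet replicate 1 the second was 0.89 on the log2 scale (adjusted p = 0.0706), and it was lost as well without platelet replicate 3 or platelet plus LPS replicate 1 or 2 (adjusted p = 0.079, 0.0937 and 0.127). Neither comparison of platelet-exposed with unexposed cells passed (adjusted p = 0.512 without LPS and 0.418 with it).

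The NR4A receptors differed from each other too. Nr4a1, also called Nur77 and needed for patrolling Ly6C-low monocytes, was at 7.05, 6.66 and 6.19 CPM in untreated, 5.14, 7.22 and 7.43 CPM in platelet, 7.20, 4.55 and 7.25 CPM in LPS and 4.55, 5.10 and 4.30 CPM in platelet plus LPS libraries. The platelet plus LPS group had the lowest mean and lay below all untreated and all platelet libraries, while LPS replicate 2 fell among its libraries. Against platelets alone, platelet plus LPS was 1.42-fold lower (log2 −0.51, SE 0.20, adjusted p = 0.049), a call that was lost in 14 of 21 alternatives (adjusted p = 0.00249 to 0.155). LPS without platelets gave −0.07 (SE 0.20, adjusted p = 0.808), and prior platelets under LPS gave −0.44 (SE 0.21, adjusted p = 0.252).

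Nr4a3, or Nor1, had no read in any untreated library and 1, 0 and 1 reads in the platelet libraries, which puts it at or below the floor of 3 counts in both groups. It was at 2.24, 1.95 and 3.81 CPM in LPS and 2.44, 1.88 and 3.68 CPM in platelet plus LPS libraries, from 180 and 205 reads in all. All 6 LPS libraries were above all 6 others, and the 2 LPS groups overlapped almost completely. With 3 counts in each untreated library as the floor, Nr4a3 was at least 25.6-fold higher with LPS (adjusted p = 6.34e-07). After platelets the ratio of pooled reads per depth was 128, with an exact 95% counting interval of 35.0 to 1066, which covers counting error only (adjusted p = 9.96e-07). Prior platelets under LPS gave 1.01-fold, with a 95% interval of 0.576 to 1.76 (adjusted p = 0.993).

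Counted over the 9 tested members, platelets alone called 0 higher and 0 lower, with 1 member (Atf3) at an unadjusted p under 0.05 in edgeR, against 6.49% of all tested genes called in either direction. DESeq2 and limma-voom also called 0, with 2 and 1 members at an unadjusted p under 0.05. The platelet and untreated libraries did not overlap for 3 of 9 members (Jun and Junb above, Atf3 below), where 25.1% of all tested genes did not overlap. LPS without platelets called 4 members higher (Junb, Egr2, Atf3 and Nr4a3) and 3 lower (Fos, Jun and Egr1), where 27.7% of all tested genes were called higher and 23.0% lower. The groups did not overlap for 7 of 9 members, against 60.5% of all genes. For prior platelets under LPS the calls were 2 higher (Fos and Jun) and 0 lower, against 4.41% and 2.87%, and 4 of 9 members did not overlap (Fos, Fosl2, Jun and Junb, all above), against 27.0%. LPS after platelets called 5 higher (Fos, Junb, Egr2, Atf3 and Nr4a3) and 3 lower (Jun, Egr1 and Nr4a1), against 27.6% and 21.8%, and 7 of 9 did not overlap, against 54.8%. With library totals alone the 5 became 3. The interaction called 1 member, Fos, higher and 0 lower, where 0.859% of all tested genes were called higher. The median log2 difference of the 9 members in these 5 comparisons was 0.03, −0.03, 0.14, 0.43 and 0.11, and without Nr4a3, whose fitted value depends on how counts of 0 are handled, it was 0.01, −0.05, 0.20, 0.34 and 0.17. Over all tested genes it was 0.00, 0.01, 0.01, 0.02 and 0.01.

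Scaling bears on the LPS comparisons. With library totals alone the median gene moved from 0.01 to −0.37 for LPS against untreated cells, and the split of all calls went from 3640 higher and 3021 lower to 2133 and 5975. With upper-quartile factors that median was −0.19 and the split 2650 and 4350. For LPS after platelets the split was 3627 and 2871, which became 2194 and 5749 with library totals alone and 2536 and 4623 with upper-quartile factors, where the median was −0.22. Jun, Egr1, Junb, Atf3 and Nr4a3 kept their direction and call with LPS under each of the 21 alternatives, with or without platelets.

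**Figure D2:**
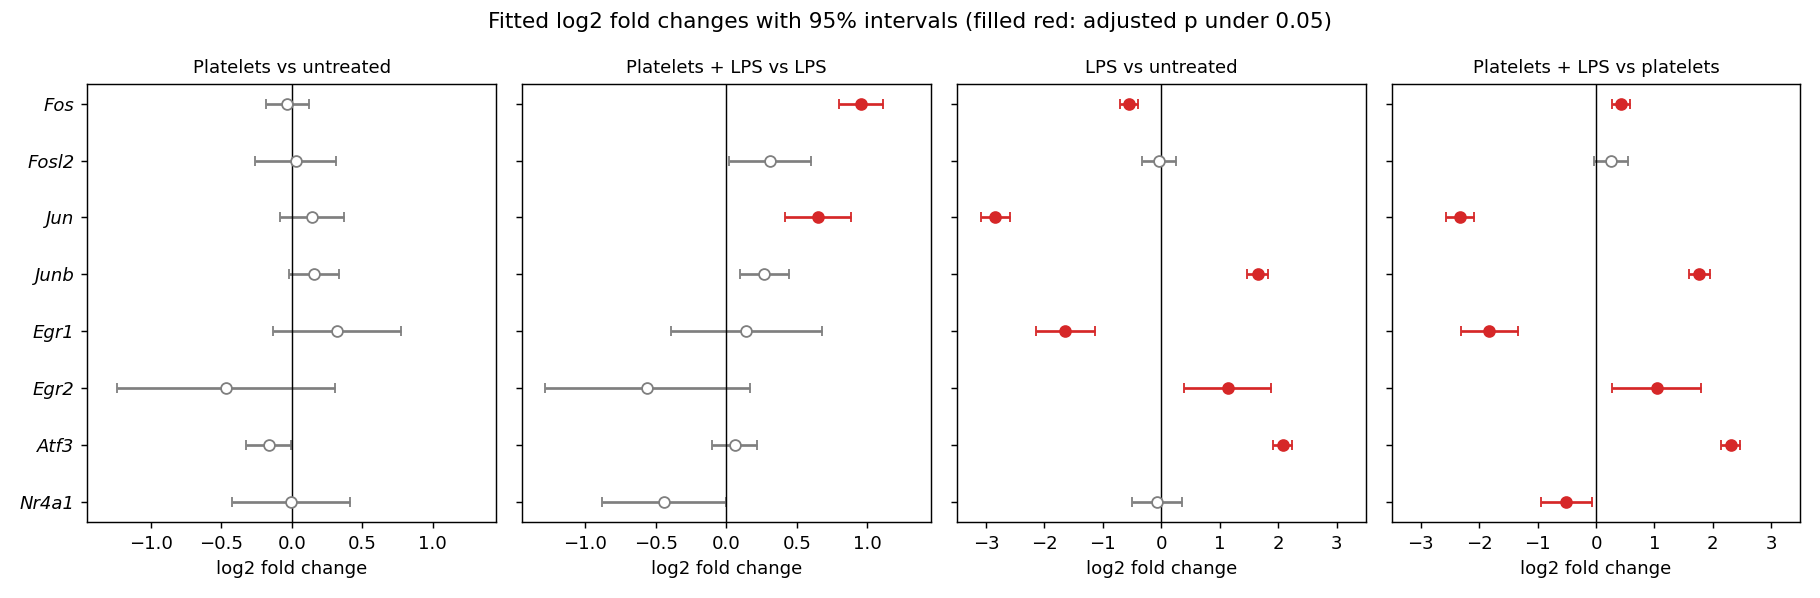
Fitted log2 fold changes with 95% intervals for 8 members in 4 comparisons, with filled red points where the adjusted p was under 0.05. Nr4a3, whose untreated level is 0, and Fosb, which was not tested, are left out. The 2 left panels, for platelets, have a narrower axis than the 2 right panels, for LPS: with platelets only Fos (0.95) and Jun (0.65) under LPS are filled, whereas Jun falls and Junb and Atf3 rise in both LPS panels. The small Fos rise in the last panel (0.43) drops to 0.07 with library totals alone.

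The members can be ranked against each other only per length, so CPM were divided by the exon length of each gene in GENCODE M21. In untreated cells the order per kilobase was Jun (83.8 CPM per kb), Fos (79.7), Atf3 (74.6), Junb (69.1), Fosl2 (2.11), Nr4a1 (1.89), Egr1 (1.20), Egr2 (0.583), Fosb (0.0224) and Nr4a3 (0). The libraries of Jun and Fos overlapped there, and so did those of Atf3 and Junb, while the other neighbours in that order did not overlap. With platelets alone the order began with Jun (92.6), Fos (77.9), Junb (77.0) and Atf3 (66.6), and Fos and Junb overlapped. With LPS it became Atf3 (315), Junb (218), Fos (54.2) and Jun (11.7), all separate from each other, followed by Fosl2 (2.06), Nr4a1 (1.81), Egr2 (1.29), Nr4a3 (0.446), Egr1 (0.387) and Fosb (0.0106). Fosl2 overlapped Nr4a1, Nr4a1 overlapped Egr2, and Nr4a3 overlapped Egr1. After platelets and LPS the same 4 genes led in the same order, at 328, 262, 105 and 18.4 CPM per kb, without overlap.

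The make-up of the 6 AP-1 genes (Fos, Fosb, Fosl2, Jun, Junb and Atf3) shows this rearrangement directly. It is given as each gene's share of their summed CPM per kb. This share of length-scaled reads within a library does not depend on how libraries are scaled to each other. The sum covers the AP-1 members only. Other AP-1 partners lie outside it, among them Jdp2 and Batf, at 186 and 102 CPM in LPS libraries. Jun held 27.1% ± 1.61 (SD, n = 3) of the sum in untreated, 29.3% ± 1.5 in platelet, 1.95% ± 0.303 in LPS and 2.57% ± 0.213 in platelet plus LPS libraries. Fos held 25.8% ± 0.594, 24.6% ± 0.341, 9.03% ± 0.266 and 14.7% ± 0.147 in the same groups. Under LPS the 3 libraries with prior platelets had Fos shares of 14.8, 14.5 and 14.7%, all above the 8.81, 8.95 and 9.33% of the 3 without. Junb held 22.3% ± 0.772, 24.4% ± 1.56, 36.2% ± 1.41 and 36.6% ± 0.264, and Atf3 24.1% ± 1.09, 21.1% ± 1.12, 52.5% ± 1.00 and 45.8% ± 0.473. The 4 main genes were thus near parity without LPS, and Atf3 and Junb made up most of the sum with it. Fosl2 stayed under 0.841% in every library and Fosb under 0.0163%. The ratio of Junb to Jun in CPM per kb was 0.828 ± 0.0761 in untreated and 0.835 ± 0.0854 in platelet libraries. It was 18.9 ± 3.75 in LPS and 14.3 ± 1.20 in platelet plus LPS libraries (SD, n = 3). Fos per Junb was 1.15 ± 0.0137, 1.01 ± 0.0748, 0.250 ± 0.0161 and 0.400 ± 0.00491. With 3 libraries a group, an exact permutation test of a share between 2 groups cannot go below p = 0.1, and the shares are given as descriptions.

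**Figure D3:**
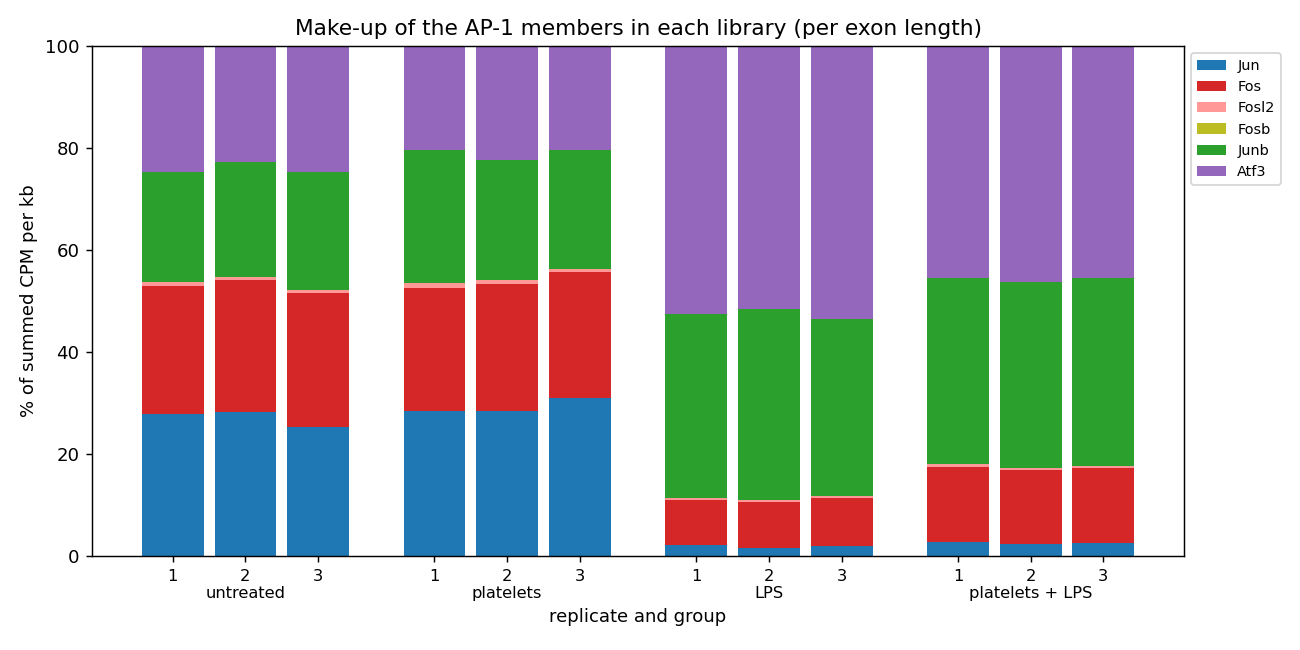
Share of each AP-1 gene in the summed CPM per kb of the 6 AP-1 genes, in percent, with a stacked bar for each of the 12 libraries. Jun (blue) shrinks from 27.1% of the bar on average in untreated to 1.95% in LPS libraries, Atf3 (purple) grows from 24.1 to 52.5%, and Fos (red) is wider in the platelet plus LPS bars (14.7%) than in the LPS bars (9.03%).

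Genes that work with the members were described from lists, and each list gene given below as higher or lower had an adjusted p under 0.05. The median log2 difference with LPS was 0.69 for other AP-1 partners, 1.31 for EGR and NR4A relatives, 0.34 for other immediate early genes, 0.30 for upstream kinases and factors and 1.51 for textbook AP-1 targets, beside 0.01 over all tested genes. For prior platelets under LPS these medians were −0.10, 0.11, 0.06, −0.08 and −0.22, beside 0.01. Among 14 other AP-1 partners, all tested, LPS alone called 9 higher and 1 lower. Batf, a leucine zipper partner of JUN without an activation domain, was 16.9-fold higher with LPS, Batf2 26.6-fold, Jdp2, a repressive JUN partner, 7.04-fold and Mafg, a small MAF protein without an activation domain, 1.74-fold. Platelets alone called 2 higher and 0 lower: Batf was 1.74-fold higher (adjusted p = 3.4e-04) and Jdp2 1.33-fold higher (adjusted p = 0.0173), a call lost with the 2 groups alone and without untreated replicate 1 or 2 (adjusted p = 0.096, 0.108 and 0.0607). Under LPS, prior platelets called 0 higher and 1 lower in edgeR, with 3 of the 14 at an unadjusted p under 0.05, and DESeq2 and limma-voom called 3 each. Jdp2 was 1.28-fold lower (adjusted p = 0.0257), a call lost in 8 of 21 alternatives (adjusted p up to 0.117). For the interaction Jdp2 (log2 −0.77, adjusted p = 0.0067) and Batf (log2 −0.83, adjusted p = 0.00827) were called lower.

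Of 6 EGR and NR4A relatives, Egr3 and Egr4 were too low to test. With LPS, Nab2 and Nab1, the corepressors that bind EGR proteins, were 2.87-fold and 2.14-fold higher, Nr4a2, the third NR4A receptor, was 3.03-fold higher (adjusted p = 9.19e-04), and Rxra, a receptor with which NR4A1 and NR4A2 pair, was 3.56-fold lower. In edgeR 0 of these 4 passed for platelets alone, for prior platelets under LPS or for the interaction, with 3, 1 and 0 at an unadjusted p under 0.05. The smallest of these adjusted p-values was 0.0719, for Rxra under LPS. DESeq2 called 1, 0 and 0, and limma-voom called 0 in each.

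Among 30 other immediate early genes, of which 29 were tested, LPS called 13 higher and 10 lower. Dusp2, a phosphatase of MAP kinases, was 35.4-fold higher, Gadd45b, a stress sensor, 31.8-fold, Plk2, a polo-like kinase, 7.91-fold, and Zfp36, which promotes decay of AU-rich messages, 4.09-fold. Platelets alone called 3 higher and 2 lower: Plk2 was 2.0-fold lower, Dusp1, another MAP kinase phosphatase, 1.52-fold lower, Klf2 1.5-fold higher and Zfp36l1 1.69-fold higher. Under LPS, prior platelets called 4 higher and 4 lower, with Plk2 2.18-fold lower, Mcl1, a survival factor, 1.36-fold higher, Klf10 1.78-fold higher (adjusted p = 0.00153) and Klf6 1.30-fold lower. Klf10, a TGF-beta-inducible zinc finger factor, also passed for the interaction (log2 0.95, adjusted p = 0.0219), the only one of the 29 to do so, and was lost in 8 of 20 alternatives (adjusted p up to 0.0795).

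Of 25 upstream kinases and factors, all tested, LPS called 11 higher and 6 lower. Mapkapk2, a kinase downstream of p38, was 9.33-fold higher and Map3k8, the kinase that links Toll-like receptors to ERK, 8.12-fold, while Elk3, a partner of serum response factor, was 3.08-fold lower and Map2k3, a p38 activator, 2.25-fold lower. Platelets alone called Mapk11 higher, from 0.648 ± 0.158 to 1.70 ± 0.265 CPM (2.61-fold, adjusted p = 0.0218), and 0 lower. That call was lost with limma-voom (adjusted p = 0.0728) and without untreated replicate 2 or 3 or platelet replicate 2 (adjusted p = 0.115, 0.062 and 0.0785). Under LPS, prior platelets called 2 higher and 3 lower, among them Elk3, 1.58-fold higher (adjusted p = 1.01e-04), Creb1, which binds CRE motifs, 1.46-fold lower, Mapk14, which encodes p38 alpha, 1.35-fold lower, and Mapkapk2 1.20-fold lower, which was lost in 12 of 21 alternatives (adjusted p up to 0.152). The interaction called Elk3 (log2 0.74, adjusted p = 0.00337) and Map2k3 (log2 0.47, adjusted p = 0.0378) higher. The call for Elk3 held in all 20 alternatives, and that for Map2k3 was lost in 15 of them, DESeq2 size factors and upper-quartile factors included (adjusted p up to 0.12).

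Of 10 textbook AP-1 targets, 9 were tested, and LPS called 5 higher and 4 lower. Mmp13, a collagenase, was 20.5-fold higher and Cd44, the hyaluronan receptor, 3.03-fold higher, while Plau, which encodes urokinase, was 23.1-fold lower and Ccnd1, which encodes cyclin D1, 13.9-fold lower. Platelets alone called Mmp13 3.08-fold lower, Mmp12 2.47-fold lower and Mmp9 1.97-fold higher. Under LPS, prior platelets called Timp1, a metalloproteinase inhibitor, 3.47-fold higher (adjusted p = 0.00714) and Plaur, the urokinase receptor, 1.28-fold higher (adjusted p = 0.00904), and called Mmp12 1.5-fold and Mmp13 1.29-fold lower, calls lost in 6 and 8 of 21 alternatives. For the interaction Mmp13 (log2 1.25, adjusted p = 6.07e-04) was called higher and Mmp9 (log2 −1.23, adjusted p = 0.0177) lower, the latter lost without LPS replicate 1 or untreated replicate 3 (adjusted p = 0.0584 and 0.055). With library totals alone the LPS splits became 7 higher and 2 lower for AP-1 partners, 12 and 14 for immediate early genes, and 7 and 10 for upstream genes, and the medians of the last 2 lists changed from 0.34 and 0.30 to −0.04 and −0.08. Without platelet replicate 1, prior platelets under LPS called 1 higher and 2 lower partners, 6 and 5 immediate early genes, 3 and 3 upstream genes and 3 and 2 targets.

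Of 12 heat shock genes, a measure of handling stress, edgeR called 0 for platelets without LPS and 0 with it, where 4 and 2 had an unadjusted p under 0.05, DESeq2 called 2 and 2 and limma-voom 0 and 1. LPS alone called 6 higher and 4 lower, and the stress-inducible chaperone genes Hspa1b and Hspa1a were 28.6-fold and 20.5-fold higher. Hspb1, a small heat shock protein gene, had 4 reads in all in untreated and 124 in LPS libraries. Hspa1a and Hspa1b are near-identical copies that counting may split. The summed level of the 12 genes, most of it Hspa8 and Hsp90ab1, was 2831 to 2974 CPM in untreated, 2841 to 3216 in platelet, 2886 to 3151 in LPS and 3178 to 3196 in platelet plus LPS libraries. Their part in the results above was not tested.

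**Figure D4:**
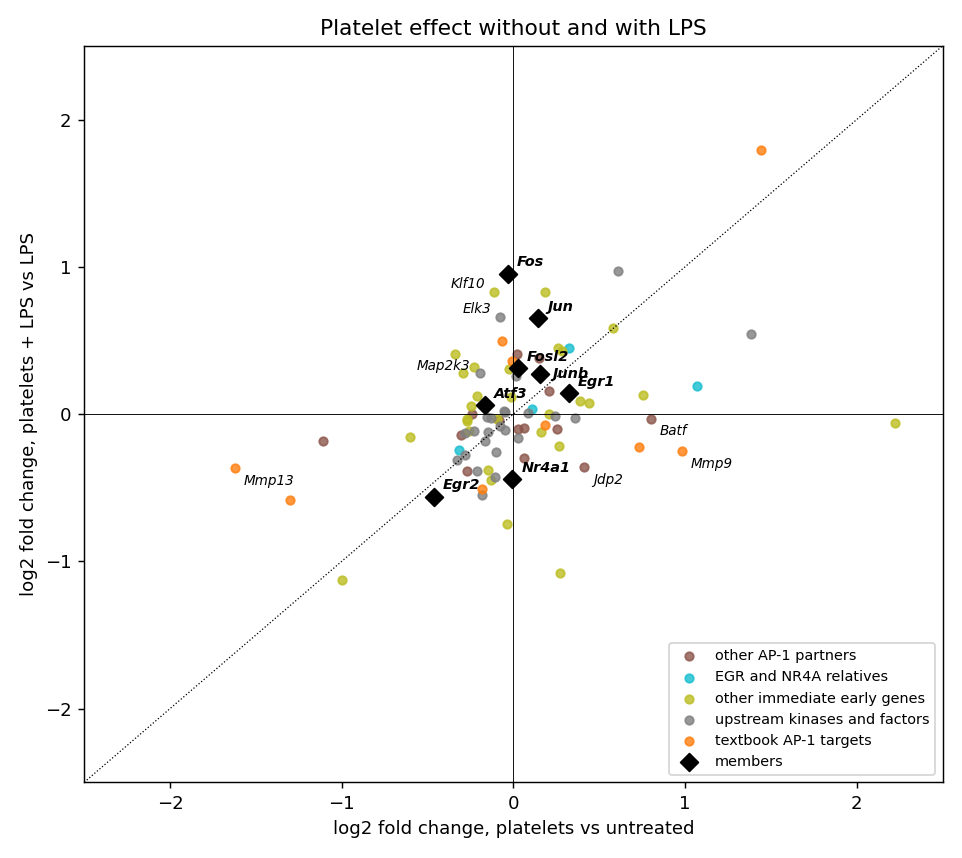
Log2 fold change with platelets in cells without LPS (horizontal axis) and in cells given LPS (vertical axis), for 8 members (black diamonds) and the genes of 5 related lists (coloured points), with a dotted line where both are equal. Names without bold mark list genes whose interaction had an adjusted p under 0.05. Fos lies near 0 on the horizontal axis (−0.03) and at 0.95 on the vertical axis, close to Klf10 and Elk3. Nr4a3 and Fosb are left out.

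Across the 12 libraries the genes most like each member in log2 CPM were found by Pearson r, given as a description since the 12 points share 4 treatments. Fos was most like Olfml3 (r = 0.975), Tgfbi (0.953) and Ccl7 (0.945). Jun was most like Nrros (0.996), Cerk (0.995) and Snx24 (0.995), and Junb most like Socs1 (0.998), Marcksl1 (0.997) and Tent5a (0.997). Atf3 was most like Tor1aip1, Tnip1 and Tnf (each 0.999). Egr1 was closest to Arhgap24 (0.988), Egr2 to Pex19 (0.927), Nr4a3 to Cd44 (0.997), Nr4a1 to Spata6 (0.916) and Fosl2 to Rbm8a2 (0.831). Among the members, Junb and Atf3 had r = 0.986 and Jun and Egr1 0.961, while Jun and Atf3 had −0.976 and Jun and Junb −0.948. Fos stood apart from both blocks, with 0.264 against Jun and 0.022 against Junb.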

How the data were processed

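Per the labels' protocols, the RNeasy Plus Micro kit gave total RNA, SMARTer Ultra Low Input v4 amplified it and Nextera XT made the libraries. The deposited files hold read counts per gene, whole numbers that the authors did not normalize. Tools listed in the submitters' processing notes are Salmon 1.5.2, STAR 2.7.9a, fastp 0.23.1, and featureCounts of Subread 2.0.1. Which of them made the counts, with which genome build, annotation and strand setting, is not given in the sources used here. GENCODE M21 gave exon lengths and names, and RefSeq the promoters of 9 of 10 members, all but Egr1.

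Of 26048 genes with a read, 13151 passed filterByExpr of edgeR 4.0.16 (R 4.3.3). TMM-scaled counts of all 12 libraries were fitted in a single quasi-likelihood model of 4 group means (8 residual degrees of freedom, common dispersion 0.0171). Tests were two-sided, with Benjamini-Hochberg adjustment over all genes tested and a threshold of 0.05. SEs come from the F statistic. The script was tested on simulated data. Intervals and floors from counts cover counting error only, since amplified reads without molecular identifiers are not independent molecules. No 2 libraries of a group agreed within sampling noise.

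The members and lists were chosen with earlier results of these data known. All members are named, and 1 gene of the AP-1 partner list is not reported here and not counted. Of each list, up to 4 genes with the smallest p in the comparison are named, and the 3 genes most like each member leave out predicted genes and pseudogenes. Alternatives were other scalings, no filter or at least 1 CPM and 10 counts in 3 libraries, the replicate number as a block, DESeq2 1.42.0 (Wald test), voom of limma 3.58.1, the 2 groups compared alone, and each library left out in turn.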

Additional observations from a re-analysis of the deposited data

Results flagged for a closer look

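The effect of platelets with LPS differed from that without LPS, by the interaction term of the edgeR fit with Benjamini-Hochberg adjustment over all genes, for 1 of 9 tested members and 7 genes of the related lists. Those lists held 14, 4, 29, 25 and 9 tested genes. Over all 13151 tested genes the interaction called 208. Fos had a difference of 0.99 on the log2 scale. It was positive as well for Mmp13 (1.25), Klf10 (0.95), Elk3 (0.74) and Map2k3 (0.47), and negative for Jdp2 (−0.77), Batf (−0.83) and Mmp9 (−1.23). Over 20 alternatives the call was lost in 15 for Map2k3, 8 for Klf10, 2 for Mmp9 and 0 for the others. For Fos, Klf10 and Elk3 platelets alone gave no call, and prior platelets under LPS gave a higher level: Elk3 was at 105 ± 3.60 CPM in untreated, 99.6 ± 2.48 in platelet, 34.1 ± 1.94 in LPS and 53.9 ± 2.67 in platelet plus LPS libraries (SD, n = 3). For Mmp13 the larger fold with platelets was the one without LPS, 3.08-fold lower against 1.29-fold lower: 10.6 ± 1.11 against 3.45 ± 0.510 CPM without LPS, and 217 ± 17.6 against 168 ± 7.89 CPM with it. Groups of 3 are too small for the test of a single outlying library.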

How the results depend on the processing

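Over 21 alternatives (20 for the interaction), 934 values for the members were recomputed: 877 kept their direction and side of the threshold, 25 kept the direction but lost the call, 8 gained a call and 24 changed sign. No value that changed sign had passed the threshold in either analysis. Those were, for platelets alone, Fos 0.00040 with upper-quartile factors, Fosl2 −0.0073 with library totals alone, and Nr4a1 0.012 with DESeq2 or its size factors, 0.0044 with the 2 groups alone and 0.025 with upper-quartile factors; for prior platelets under LPS, Nr4a3 −0.0041 with DESeq2, −0.0016 with its size factors and −0.0049 with library totals; and for LPS after platelets, Fosl2 −0.10 with library totals. Leaving out each library gave ranges across 0 for Fos (−0.054 to 0.0089), Fosl2 (−0.12 to 0.14) and Nr4a1 (−0.099 to 0.17) with platelets alone, Nr4a1 (−0.18 to 0.13) with LPS, Egr1 (−0.093 to 0.37) and Nr4a3 (−0.29 to 0.35) for prior platelets under LPS, and Egr1 (−0.42 to 0.043) and Egr2 (−0.39 to 0.27) for the interaction. The cause was not tested.

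Platelets alone called 854 genes, 1291 with DESeq2, 415 with the 2 groups alone, and 410 to 1027 leaving out each library (439 and 410 without replicate 1 or 2 of the untreated group, 546 without platelet replicate 2). Prior platelets under LPS called 957, and 557 to 1640 leaving out each library (1640 without platelet replicate 1, 628 without LPS replicate 3, 597 and 557 without platelet plus LPS replicates 1 and 2). Members called higher with LPS after platelets went from 5 to 3 with library totals. The interaction called 208 genes, 371 with no filter, 403 with DESeq2 and 87 to 361 leaving out each library, a move of over 1.5 times for 10 of the 12, that is for each library but LPS replicate 3 and platelet replicate 3. The replicate block gave 118 for the interaction and lost 1 member call, Nr4a1 for LPS after platelets (adjusted p = 0.0754). Same-numbered libraries deviated with r of −0.23 to 0.14, 1 of 18 pairs was over 0.1, and 2 of 12 libraries correlated best with their own number. Fosb and Nr4a3 without LPS are limited by depth.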
